A study of Mus musculus with 2 samples.

Results

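The Cdx and Gata transcription factors were examined in whole mouse intestine at embryonic day 15.5. The members are Cdx1, Cdx2 and Cdx4 and Gata1 to Gata6, chosen by gene name and not by their measured values, 9 of the 43346 Ensembl gene entries in the deposited gene tables. All 9 were found in the gene and transcript tables of both libraries. The samples form 1 group of 2 total RNA libraries from strain B6NCrl. Male and female embryos, described as healthy, were pooled for each library (78 embryos for replicate 1 and 62 for replicate 2), and 10 ng of RNA was used per library. The estimated counts summed to 34406872 in replicate 1 and 40669822 in replicate 2. Neither library is a treated, mutant or other-age sample. Genes, transcripts of a gene and the 2 libraries are compared, and no difference between conditions can be tested.

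Cdx factors are homeodomain proteins that pattern the posterior body axis in the early embryo. Cdx2 and Cdx1 later act in the intestinal epithelium, where Cdx2 is required for intestinal identity, whereas Cdx4 is known mainly from the tail end of the younger embryo. Gata factors bind DNA through zinc fingers and fall into a group known from blood and nerve lineages (Gata1 to Gata3) and a group known from heart, gut and other endoderm or mesoderm derivatives (Gata4 to Gata6). The working name "gut endoderm factors" therefore fits the usual description of Cdx1, Cdx2 and Gata4 to Gata6 only, and whole tissue does not show which cells a transcript came from. In such tissue, fewer cells of a type and less RNA per cell cannot be told apart.

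The paralogs share their DNA-binding domains, so the coding sequence of these domains is shown first, because reads are assigned to a member by the bases in which the members differ. The stretches are from GENCODE M21 transcripts on GRCm38 (mm10), 5′ to 3′ on the coding strand. For the Gata genes the 25 codons from the first to the last of the 4 zinc-binding cysteines of the C-terminal finger are given, with the cysteine codons in capitals. They lie at chrX:7960607-7960681 (Gata1, exon 5 of 6), chr6:88204610-88204684 (Gata2, exon 5 of 6), chr2:9863119-9863193 (Gata3, exon 5 of 6), chr14:63203683-63203757 (Gata4, exon 4 of 7) and chr2:180328331-180328405 (Gata5, exon 3 of 6).
Gata1: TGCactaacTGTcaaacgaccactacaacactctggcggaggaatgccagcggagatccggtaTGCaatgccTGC
Gata2: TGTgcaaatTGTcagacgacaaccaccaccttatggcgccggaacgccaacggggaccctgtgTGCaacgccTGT
Gata3: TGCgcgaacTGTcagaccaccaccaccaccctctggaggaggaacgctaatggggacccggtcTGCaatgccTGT
Gata4: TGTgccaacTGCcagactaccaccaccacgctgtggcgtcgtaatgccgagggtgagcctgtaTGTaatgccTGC
Gata5: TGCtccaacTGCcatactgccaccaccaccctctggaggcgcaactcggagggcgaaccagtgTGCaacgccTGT
Over these 75 bases the closest pair of all 6 genes was Gata4 and Gata6, with 61 identical bases (81.3%), followed by Gata2 and Gata3 with 60 (80.0%). The most distant pair was Gata1 and Gata5, with 51 identical bases (68.0%).

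For Cdx2 and Cdx4 the end of the homeodomain is given over 32 codons, with 6 conserved codons of the recognition helix in capitals. In Cdx2 it spans chr5:147303181-147303237 and chr5:147302055-147302093, and in Cdx4 chrX:103328098-103328154 and chrX:103329434-103329472, in each case exons 2 and 3 of 3.
Cdx2: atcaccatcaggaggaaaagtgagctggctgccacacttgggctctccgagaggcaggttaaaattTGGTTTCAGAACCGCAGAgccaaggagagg
Cdx4: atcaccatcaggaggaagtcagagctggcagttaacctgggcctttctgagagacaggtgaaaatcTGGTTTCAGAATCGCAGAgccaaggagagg
These 96 bases differed at 17 positions between Cdx2 and Cdx4, at 23 between Cdx1 and Cdx2 and at 21 between Cdx1 and Cdx4. No 31-base word of any member occurred in another member. Against all other annotated genes, on both strands, Cdx1, Cdx4, Gata1 and Gata2 shared no such word. Cdx2 shared 0.269% of its words, Gata4 0.0510% and Gata6 1.02%. Gata3 shared 3.83% and Gata5 7.08%, chiefly with antisense genes that overlap them.

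The Cdx genes were unequal. Cdx1 (ENSMUSG00000024619.8, chromosome 18, 61018862 to 61036199, minus strand) stood at 77.6 TPM in replicate 1 and 71.1 in replicate 2, a mean of 74.35 ± 4.57 (SD, n = 2) from 3069 and 3277 estimated counts. TPM is a level corrected for transcript length and for the total of the library. Cdx2 (ENSMUSG00000029646.3, chromosome 5, 147300805 to 147307270, minus strand) stood at 29.9 and 32.0, a mean of 30.98 ± 1.47, from 1551 and 1932 counts. Cdx1 was above Cdx2 in each library, by 1.37 and 1.15 on the log2 scale, which is 2.40-fold over the means. Cdx1 made up 72.2% and 69.0% of the summed Cdx TPM. The Cdx1 transcript is shorter (1750 against 2261 bases), and without length correction the log2 ratio was 0.87.

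Cdx4 (ENSMUSG00000031326.2, chromosome X, 103321398 to 103330592, plus strand), the X-linked member of the family, had 0 counts in both libraries. At this depth 3 counts on Cdx4 would correspond to a TPM of 0.0672 in replicate 1 and 0.0577 in replicate 2, the upper limits that a count of 0 allows. Against these limits Cdx2 was at least 446-fold higher in replicate 1 and at least 555-fold higher in replicate 2. Such limits, like all counting intervals given here, cover counting error only.

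Of the Gata genes, Gata4 and Gata6 were the highest and Gata5 followed at a distance. Gata4 (ENSMUSG00000021944.11, chromosome 14, 63198922 to 63271692, minus strand), known from heart, proximal small intestine and gonad, stood at 36.7 and 35.6 TPM (36.2 ± 0.764, n = 2). Gata6 (ENSMUSG00000005836.8, chromosome 18, 11052064 to 11085635, plus strand), an early endoderm factor that is widely expressed along the gut, stood at 26.7 and 26.3 (26.5 ± 0.290). Gata5 (ENSMUSG00000015627.5, chromosome 2, 180325133 to 180334699, minus strand), a relative found in gut epithelium and endocardium, stood at 7.11 and 7.40 (7.255 ± 0.205). Each of these genes differed little between the libraries, and none of their ranges overlapped. Gata4 exceeded Gata6 by 1.36-fold and Gata5 by 4.98-fold over the means. Without length correction the log2 ratio of Gata6 to Gata4 was -0.06, against -0.45 in TPM, and the length used for Gata4 depends on its mixture of transcripts.

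Gata1 to Gata3 were the lowest of the detected members. Gata2 (ENSMUSG00000015053.10, chromosome 6, 88193891 to 88207032, plus strand), known from blood progenitors, mast cells and endothelium, stood at 3.09 and 4.02 TPM from 232 and 350 counts. Gata3 (ENSMUSG00000015619.10, chromosome 2, 9857078 to 9890034, minus strand), known from T cells, innate lymphoid cells and sympathetic neurons, stood at 1.88 and 2.18 from 140 and 190 counts. Gata1 (ENSMUSG00000031162.10, chromosome X, 7959260 to 7978071, minus strand), the factor of red cell and megakaryocyte precursors, stood at 2.00 and 1.41 from 83 and 71 counts. Summed, Gata1 to Gata3 reached 6.97 and 7.61 TPM, against 70.5 and 69.3 for Gata4 to Gata6, which held 91.0% and 90.1% of all Gata TPM. The summed Cdx level, 108 and 103 TPM, was 1.51-fold that of Gata4 to Gata6 by mean TPM, whereas without length correction the log2 ratio of the sums was -0.0049, so that their order rests on the correction.

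**Figure D1:**
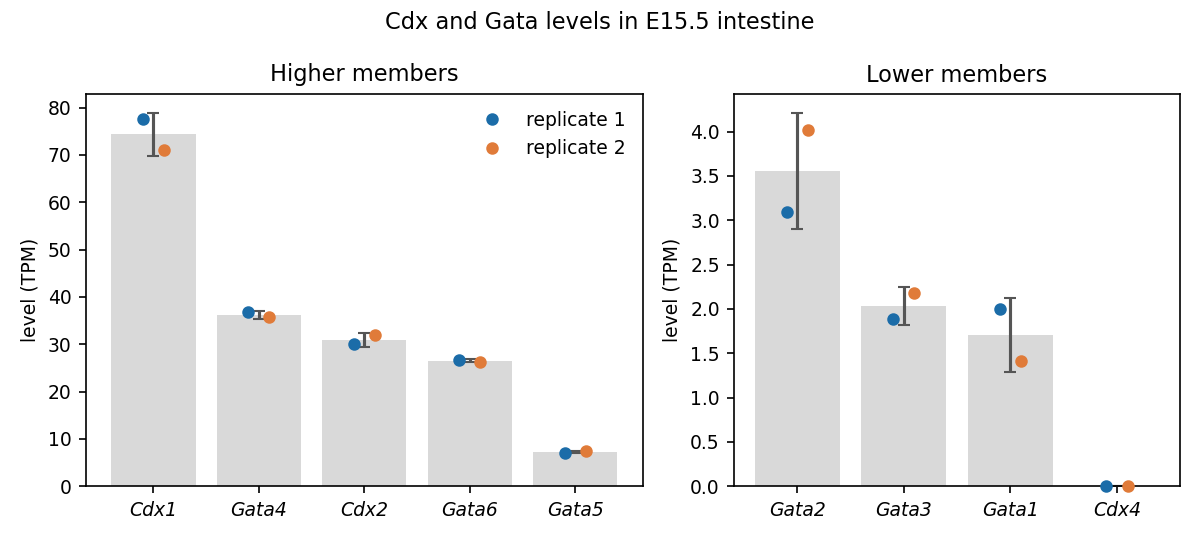
Level of each member in TPM (vertical axes, linear, separate scales for the higher and the lower members). Bars are means of the 2 libraries, error bars 1 SD and points the libraries. Cdx1 stands at 74.35, Gata4, Cdx2 and Gata6 between 26.3 and 36.7, Gata5 at 7.11 and 7.40, and Cdx4 at 0 in both libraries.

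The order from the top was Cdx1, Gata4, Cdx2, Gata6, Gata5, Gata2, Gata3, Gata1 and Cdx4. In TPM, neighbours in this order did not overlap between the libraries, except Gata3 and Gata1, whose order was reversed in replicate 1 (log2 gap -0.09, against 0.63 in replicate 2) and which were not separated. The smallest separated gaps were those of Gata4 over Cdx2 (0.29 and 0.15 on the log2 scale) and of Cdx2 over Gata6 (0.16 and 0.28). Without length correction the latter pair turned round in both libraries. Cdx2 was at 46.1 and 48.4 CPM, counts scaled to the total of mouse gene counts, and Gata6 at 58.8 and 56.9. On the posterior mean TPM, another estimate in the same tables, Gata2 (3.05 and 3.97) and Gata3 (3.10 and 3.21) overlapped and changed order in replicate 1, while Gata1 (2.25 and 1.69) lay below Gata3 in both libraries. With 2 libraries a permutation test cannot reach the 0.05 threshold, so the order is a description. The tables also give lower and upper bounds for TPM, whose level is not stated. These bounds did not overlap in either library for neighbours from Cdx1 to Gata2 or for Gata1 and Cdx4. They overlapped in both libraries for Gata2 and Gata3, and in replicate 1 for Gata3 and Gata1.

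Genes reaching 1 TPM in each library are called detected. By this limit 8 of the 9 members were detected, all but Cdx4, beside 34.6% of all gene entries and 62.7% of protein-coding entries. Of the members, 4 stood at 20 TPM or more in both libraries (Cdx1, Gata4, Cdx2 and Gata6), beside 14.6% of all entries. Cdx1 lay above 84.7% of the detected genes, Gata4 above 70.8%, Cdx2 above 67.1% and Gata6 above 63.2%. Gata5 lay above 31.6%, Gata2 above 17.98%, Gata3 above 8.89% and Gata1 above 5.91%. The members thus spread over most of the range of detected genes, from Cdx1 down to Gata1 near the detection limit.

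**Figure D2:**
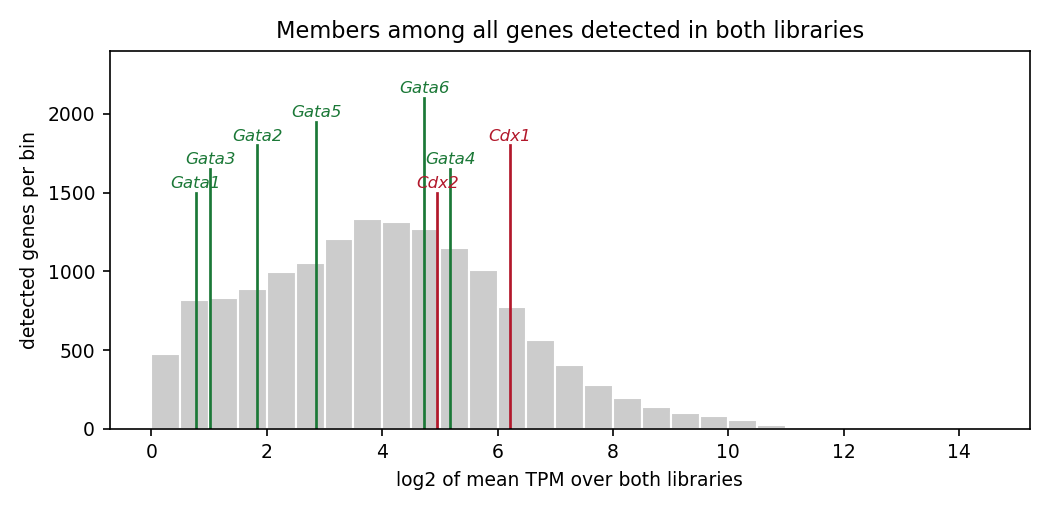
Number of genes detected in both libraries per bin of log2 mean TPM (grey bars, horizontal axis in log2 TPM), with vertical lines at the 8 detected members (red for Cdx, green for Gata; line heights only separate the names). Cdx1 lies in the right shoulder, Gata1 and Gata3 close to the left edge.

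The likeness of members to other genes could be judged by level only, because 2 libraries of 1 group give no pattern across samples. In lists of endoderm and of mesenchyme transcription factors, the nearest to Cdx1 was the nuclear receptor gene Hnf4a, a regulator of enterocytes, at 71.3 and 71.0 TPM. Nearest to Cdx2 was the mesenchymal gene Osr1 at 30.2 and 31.65. Sox9, a factor of epithelial progenitors, was nearest to Gata4 at 29.1 and 34.5. Nr2f2 was nearest to Gata6 (21.8 and 24.3), Hand2 to Gata5 (5.92 and 8.19) and the forkhead gene Foxa2 to Gata2 (4.82 and 4.56). Prox1, at 2.17 and 2.29, was nearest to both Gata3 and Gata1.

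Transcript shares were read from the percent of a gene's TPM that each transcript holds. Cdx1, Cdx2, Gata5 and Gata6 have 1 annotated transcript each in the tables, so their share was 100% by construction. Gata4 was divided among 6 transcripts, all with counts in replicate 1. The full-length transcript Gata4-202 (7 exons, 441 codons, start at 63245248) led with 30.3% and 37.8%. Its near twin Gata4-201, which starts 23 bases upstream and has 1 codon more (442), held 21.1% and 17.3%, so that these 2 together made up 51.4% and 55.1%. A transcript with an internal start begins 31641 bases downstream of the Gata4-202 start. It encodes 236 codons and held 22.8% and 16.96%.

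The other 3 Gata4 transcripts begin at distal first exons up to 26444 bases upstream of the Gata4-202 start, and their annotated models break off within the coding sequence. They held 25.8% and 27.9% of the TPM of Gata4 but 6.08% and 6.62% of its counts, and their models are short (599 to 683 bases). The most abundant of them was assigned 94.4 and 131 counts and 19.4% and 23.8% of TPM. By counts, Gata4-202 and Gata4-201 together held 71.6% and 76.8%. Counts were assigned to Gata4 transcripts with distal, full-length and internal starts in both libraries. Their relative weight differed with whether shares were taken per length. The error of assigning reads between these transcripts was not measured, so use of each start was not tested.

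Gata2 has a distal first exon, known from blood progenitors, and a proximal first exon of wider use. Their RefSeq start sites on GRCm38 are 88193891 and 88198664, 4773 bases apart. Gata2-202, from the distal first exon, and Gata2-201, from the proximal first exon, encode the same 480 codons. In GENCODE M21 Gata2-201 starts at 88198334, upstream of the RefSeq proximal start and 4443 bases from the Gata2-202 start. The proximal transcript held 90.9% of Gata2 TPM in replicate 1 and 76.0% in replicate 2, the distal one 9.09% and 23.98%. In counts the distal transcript had 20.4 of 232 in replicate 1 and 81.7 of 350 in replicate 2. As a share of rounded counts this is 8.62% (exact Clopper-Pearson 95% interval 5.35 to 13.0%) and 23.4% (19.1 to 28.2%). The intervals do not overlap, but they cover counting error only and not the error of assigning reads between transcripts. A gap of 10 percentage points or more in the leading share, a limit chosen after these values were seen, was found for 18.3% of detected genes with several transcripts. Among those with 100 to 500 counts in replicate 1, a range that holds Gata2, the share was 33.8%. The median gap of such genes was 6.29 points, against 14.9 for Gata2.

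The 250 bases before the distal Gata2 start (chr6:88193641-88193890, plus strand, RefSeq promoter table on GRCm38.p6) are printed because they precede the transcript whose share differed most.
Gata2 distal: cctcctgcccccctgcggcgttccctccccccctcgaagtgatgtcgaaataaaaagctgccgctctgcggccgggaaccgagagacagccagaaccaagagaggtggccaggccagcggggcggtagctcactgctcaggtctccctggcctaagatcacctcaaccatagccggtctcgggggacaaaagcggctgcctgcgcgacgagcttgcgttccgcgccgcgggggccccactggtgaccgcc
G and C made up 67.2% of this window and 74.0% of the window before the RefSeq proximal start. Such windows were found for 6 of the 9 members, 7 windows in all, and not for Cdx1, Gata4 and Gata6. They were searched on both strands for AGATAA and TGATAA, words that Gata factors bind, and for TTTATG and TTTATA, words that Cdx factors bind. None of the 7 windows held any of the 4 words. Among all 32851 windows of this length, 16.6% held a Gata word and 20.9% a Cdx word. The result says only that these letters are not in these windows.

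Gata1 output fell almost wholly on Gata1-201 (413 codons), at 93.9% in replicate 1 and 100% in replicate 2. Gata1-202, named after its values were seen, starts 10161 bases upstream and was assigned 1.68 counts in replicate 1 and 0 in replicate 2, too few to separate the libraries. All Gata3 counts fell on Gata3-201 (443 codons), and its 5 other transcripts had 0 counts in both libraries. The posterior mean estimate in the same tables spread Gata3 differently, with 58.1% and 65.5% on Gata3-201. On that estimate the whole gene stood at 3.10 and 3.21 TPM in place of 1.88 and 2.18, values that lie below the deposited lower bounds of 2.01 and 2.28. The 2 estimates of Gata3 lay farther apart than the 2 libraries did on either one.

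**Figure D3:**
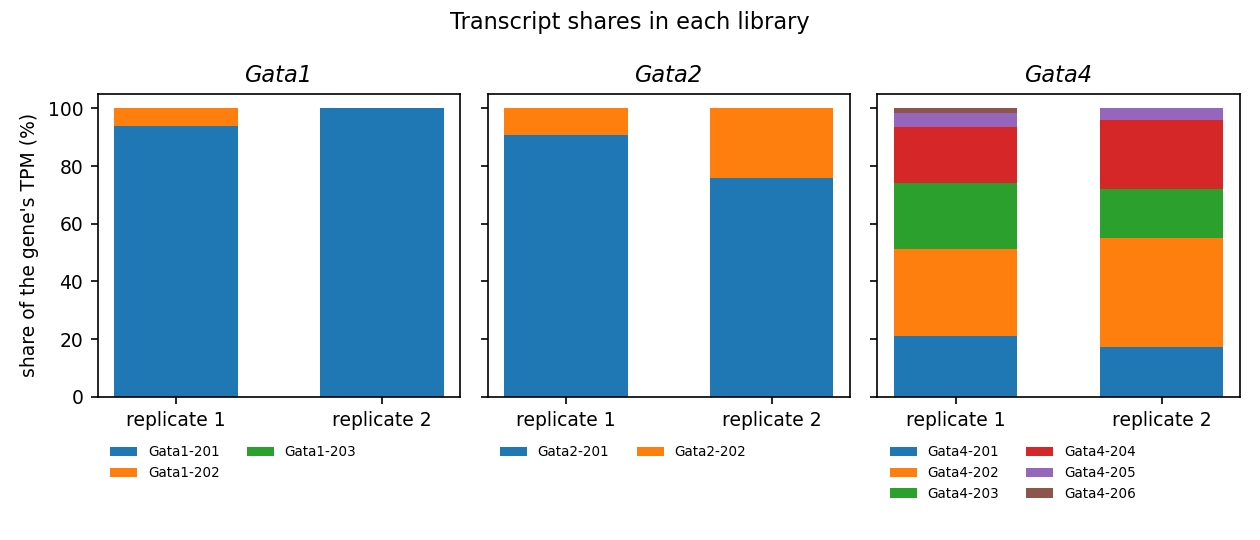
Share of each gene's TPM, in percent, on each annotated transcript of Gata1, Gata2 and Gata4 (stacked bars, 1 bar per library). The distal transcript Gata2-202 holds 9.09% and 23.98%, and 6 transcripts share Gata4.

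Genes on the opposite strand overlap 3 members. Gata5os, on the strand opposite to Gata5, overlaps it by 1843 bases and was listed at 0.63 and 0.33 TPM, and the Gata5 counts are not whole numbers (541.12 and 656.59). 1010001N08Rik runs head to head with Gata6, overlaps it by 504 bases and stood at 7.53 and 10.3 TPM from 232 and 337 counts. Gata3 overlaps Gm13256 (0 counts) and 4930412O13Rik on the opposite strand, and 9230102O04Rik on its own strand, each with at most 1 count per library. No source used here states a strand setting for the counting, so reads of such pairs may not have been told apart.

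The members were also compared between the libraries. After adding 1 to each TPM, which understates changes of low genes, the log2 ratio of replicate 2 to replicate 1 ran from -0.32 (Gata1) to 0.30 (Gata2). None of the 8 members at a TPM of at least 1 differed by 1.5-fold or more, beside 4.61% of the 15978 genes at that level in either library, a share at which a count of 0 among 8 is no result about the members. A single library each gives such a ratio no replicate check. Counts relative to the total of mouse gene counts, without spike-ins, were also compared, with exact 95% counting intervals. The ratio of replicate 2 to replicate 1 was 0.90 for Cdx1 (0.856 to 0.945) and 1.05 for Cdx2 (0.981 to 1.12). It was 0.95 for Gata4 (0.897 to 1.01), 0.97 for Gata6 (0.909 to 1.03) and 1.02 for Gata5 (0.912 to 1.15). It was 1.27 for Gata2 (1.07 to 1.51), 1.14 for Gata3 (0.914 to 1.43) and 0.72 for Gata1 (0.518 to 1.002). Only the intervals of Cdx1 and Gata2 lay wholly on one side of 1. When counts were scaled to the spike-ins, the log2 ratio of Cdx1 turned to 0.14, Gata4 to 0.22 and Gata6 to 0.24, beside a median of 0.27 over all genes (0.02 in TPM). Of all genes compared, 87.3% differed less than Gata1, 85.8% less than Gata2, 58.6% less than Gata3 and 52.7% less than Cdx1. The share was 41.9% for Cdx2, 23.8% for Gata5, 19.9% for Gata4 and 10.5% for Gata6.

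**Figure D4:**
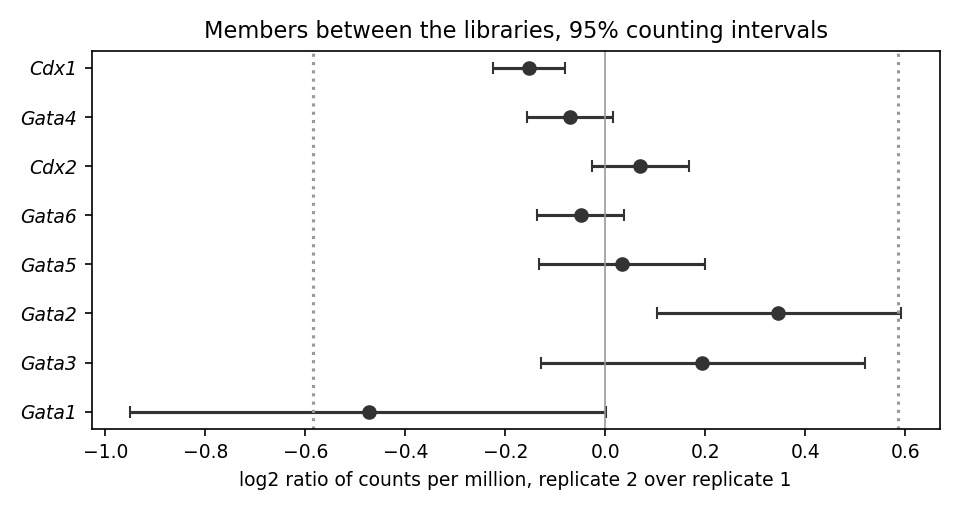
Ratio of counts relative to the total of mouse gene counts, replicate 2 over replicate 1, on a log2 axis. The 8 members with counts are ordered by level. Points are ratios, bars exact 95% counting intervals and dotted lines 1.5-fold. The interval is narrowest for Cdx1 and widest for Gata1, and those of Cdx1 and Gata2 do not cross 0.

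The genes around the members were described with lists chosen with earlier results of these data known, as counts and medians with no test. All 18 gut endoderm transcription factors were detected, with a median of 12.3 and 12.5 TPM. The median over all gene entries was 0.0900 and 0.0800, but 27368 of those 43346 entries were below 1 in both libraries. The endoderm factors were led by the epithelial factor Elf3 (177 and 175), Klf5 (95.4 and 105), Hnf4a and the homeobox gene Isx (66.4 and 64.0). Cdx1, at 77.6 and 71.1, would stand just below Klf5. No member of this list was 1.5-fold apart between the libraries, beside 4.61% of all genes compared, a share at which this is no result about the list. Of the 15978 genes at a TPM of at least 1 in either library, 8683 were higher in replicate 2 and 7244 in replicate 1. These are the background for the counts by direction that follow. The background for the counts of detected genes is the 62.7% of protein-coding entries that were detected.

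Of 14 epithelial genes known to depend on Cdx factors, 13 were detected. The galectin gene Lgals4 stood at 1321 and 1235 TPM, the cadherin gene Cdh17 at 187 and 202 and the microvillus gene Vil1 at 122 and 113, while sucrase-isomaltase, Sis, was at 0.610 in both libraries. The mucin gene Muc2, singled out after its values were seen, was the 1 gene of this list over 1.5-fold apart (13.9 and 7.94), beside 2.82% of genes that were as much higher in replicate 1. Of 12 central and posterior Hox genes, a class that Cdx factors control in the early embryo, 11 were detected in both libraries. Hoxa10 (9.43 and 16.9), Hoxb6 (13.4 and 12.1), Hoxb7 (8.91 and 10.4) and Hoxa7 (7.44 and 9.32) led. Of these 12 genes, 9 were higher in replicate 2, beside 8683 of 15978 over all genes, and Hoxa10 alone by over 1.5-fold, beside 1.78% of genes as much higher in replicate 2.

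Genes that depend on Gata4 for their place along the small intestine were also read. Of 7 such genes 5 were detected, beside 62.7% of protein-coding entries. The proximal genes Fabp1 (2213 and 1919 TPM), Apoa4 (695 and 482) and the lactase gene Lct (20.9 and 16.4) were detected. The ileal bile acid transporter gene Slc10a2 (0.870 and 0.700), which Gata4 keeps low in proximal gut, was below 1. The bile acid exporter gene Slc51a stood at 84.8 and 79.35. Slc51b (9.12 and 7.55) and Fabp6 (0.99 and 1.04), named after their values were seen, complete the list. No regional sample was analysed here, so these levels do not measure where along the gut Gata4 was expressed.

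Among 10 Gata cofactors 9 were detected. Tcf3 stood at 78.7 and 77.5, the LIM-domain genes Lmo4 at 46.7 and 52.6 and Lmo2 at 19.5 and 15.3, and their partner Ldb1 at 49.1 and 45.6. Tal1, the blood partner of Gata1, was below 1 at 0.820 and 0.650. Zfpm1 and Zfpm2, the Friend of Gata proteins that bind the N-terminal finger, were singled out after their values were seen and stood at 4.29 and 4.08 and at 2.68 and 2.98. The cofactor list did not differ by 1.5-fold between the libraries at any detected gene, beside 4.61% of all genes compared. At that share a count of 0 is no result about the list.

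The lower Gata genes were set beside markers of the cells they are known from, with the 62.7% of protein-coding entries detected as background. Of 12 erythroid genes 9 were detected, among them the heme synthesis gene Alas2 (56.0 and 55.4 TPM), the anion exchanger gene Slc4a1 (14.95 and 12.8) and Klf1 (6.34 and 5.37). In this list 8 of the 11 genes at a TPM of at least 1 in either library were higher in replicate 1, beside 7244 of 15978 over all genes. None was higher by 1.5-fold, beside 2.82% of genes as much higher in replicate 1, and the list summed to 111 and 105. Of 10 megakaryocyte and mast cell genes, which summed to 66.8 and 71.9, 6 were detected, with Pf4 at 41.5 and 41.4, Kit at 14.5 and 18.01, Cpa3 at 3.25 and 4.09 and Itga2b at 2.76 and 4.30. The mast cell receptor genes Fcer1a (0.19 and 0.08) and Ms4a2 (0.15 and 0.12) were below 1. All 10 endothelial genes were detected, and their summed level was 294 and 292 TPM.

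Beside Gata3, the enteric neuron and sympathetic genes were all detected (9 of 9), among them Tubb3 (53.0 and 49.5), Elavl4 (32.1 and 40.8) and Ret (9.49 and 8.69). Of these 9 genes, 7 were higher in replicate 2, beside 8683 of 15978 over all genes, with sums of 139 and 156. Lymphoid genes were detected for 5 of 8, beside 62.7% of protein-coding entries, and summed to 318 and 398. Id2, also expressed outside lymphocytes, held 288 and 367 of these sums. The T cell genes Cd3e and Cd3g and the receptor gene Il7r were below 1. Nephric duct and urothelium genes were detected for 3 of 8, with sums of 17.1 and 19.05, Upk1b at 12.2 and 14.7 and Pax2 at 0.1 and 0.04. The part of these cells in the Gata1, Gata2 and Gata3 values was not tested.

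Gata4 and Gata6 are also known from pancreas, liver, stomach, gonad, adrenal, heart and mesothelium, and markers of several of those tissues differed between the libraries. The summed pancreas list was 4696 TPM in replicate 1 and 1768 in replicate 2, 2.66-fold. In this list 9 of 10 genes were over 1.5-fold higher in replicate 1, beside 2.82% of genes as much higher in replicate 1. Among its highest genes were Ctrb1 (2585 and 949.8), Cpa1 (525 and 223) and Cela2a (476 and 111). The liver list summed to 751 and 531, with 8 genes higher in replicate 1 and 0 in replicate 2. Only 2 of these genes were over 1.5-fold higher, beside 2.82% of genes as much higher in replicate 1. The highest genes of the liver list were Trf (235.5 and 160) and Afp (190 and 143). The stomach list summed to 35.6 and 22.7, with 3 detected genes higher in replicate 1 and 2 in replicate 2. The gonad and adrenal list summed to 69.2 and 44.6, with 3 genes higher in replicate 1 and 1 in replicate 2. Over all genes 7244 of 15978 were higher in replicate 1. In the gonad and adrenal list Sox9 (29.1 and 34.5) was higher in replicate 2. The steroid synthesis genes Hsd3b1 (12.9 and 1.10) and Star (7.45 and 0.93) were higher in replicate 1. Of 8 heart muscle genes, which summed to 75.2 and 78.1, 3 were detected, beside 62.7% of protein-coding entries. These were Myl7 (56.7 and 61.6), Tnnt2 (14.5 and 13.75) and Tnni3 (3 and 1.89). Of the rest, Nkx2-5, Tbx5 and Myh6 were at or below 0.12 in both libraries. Of 14 mesenchyme and mesothelium factors 12 were detected, led by Tcf21 (126 and 157), Foxf1 (86.9 and 106), Nkx2-3 (67.2 and 73.8) and Osr1, and 11 of those 12 were higher in replicate 2, beside 8683 of 15978 over all genes. Beside these sums, the summed Gata4 to Gata6 level was 70.5 and 69.3. The part of these tissues in it was not tested.

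All 11 epithelial structure genes were detected, with summed levels of 5128 and 4907 TPM. This list describes epithelium and was no check of the intestine label. Lgals4, Cldn7 (863 and 832), Krt8 (755 and 708) and Epcam (653 and 669) led.

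**Figure D5:**
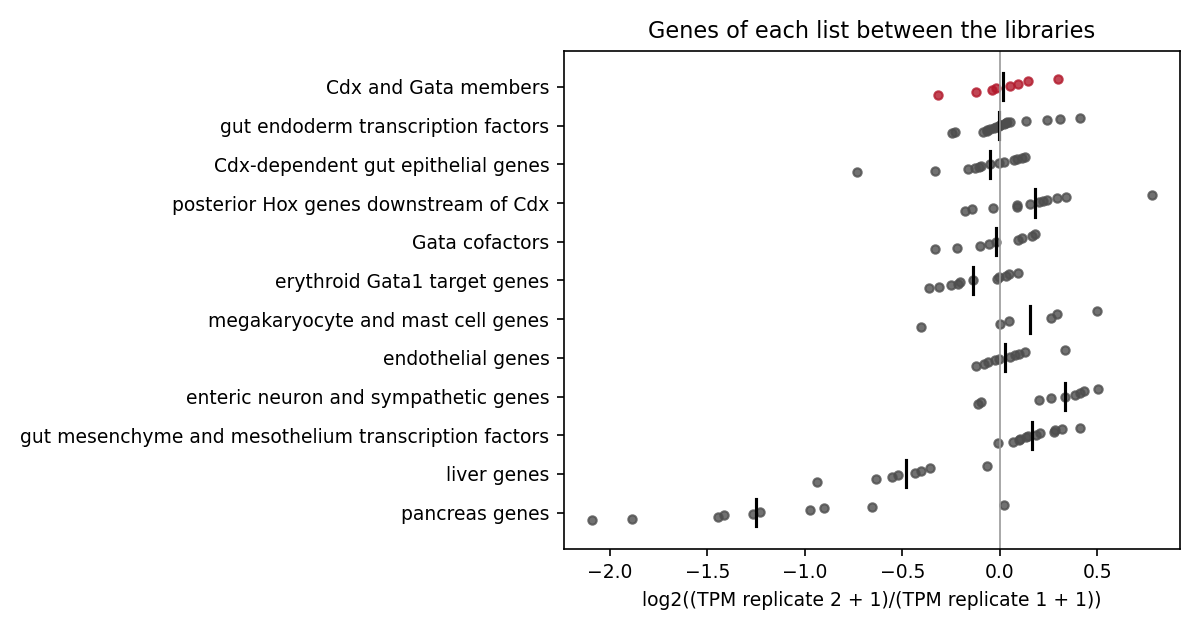
Difference between the libraries, log2((TPM replicate 2 + 1)/(TPM replicate 1 + 1)), for each gene at a TPM of at least 1 in either library in 12 lists (points; black bars are list medians). The Cdx and Gata members (red) lie between -0.32 and 0.30, and the pancreas genes have a median of -1.25.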

How the data were processed

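The members and gene lists were chosen with earlier results of these data known. The authors quantified transcriptome alignments of each library on mm10 with GENCODE M4, per the deposited readme. No source used here names the quantifier or its settings. Per the file headers, the authors deposited expected counts, TPM and FPKM per gene and transcript, a posterior mean TPM, and the percent of a gene's TPM on each transcript. The deposited lower and upper TPM bounds, whose level is not stated, were read as a score. Deposited counts summed to 34406872 and 40669822 per library. ERCC spike-ins took 2.16% and 1.76%.

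Symbols and positions came from GENCODE M21 by Ensembl identifier without version (42462 of 43346 entries matched), and 2 older symbols through RefSeq synonyms. Level ratios used a pseudocount of 0.01 and ratios between libraries 1. Expected counts were rounded for edgeR 4.0.16 (TMM) and DESeq2 1.42.0 size factors, used as alternative scalings only and tested on simulated data. With 1 group, no differential test was possible. The pools are labelled biological replicates. All 9 members are named. Of each list up to 4 highest genes, 3 below a TPM of 1 and 2 over 2-fold apart could be named, and of each gene transcripts with a mean share of at least 5%. Others are marked, and 3 genes of the lists are not reported here. Alternatives covered unit, length correction, pseudocount, detection limit, scaling, filter and single libraries.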

Additional observations from a re-analysis of the deposited data

How the results depend on the processing

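No paired analysis was possible because both libraries belong to 1 group. Without length correction the log2 level ratio was 0.87 for Cdx1 over Cdx2, -0.056 for Gata6 over Gata4, 1.89 for Gata4 over Gata5, and -0.0049 for summed Cdx over summed Gata4 to Gata6, which reversed from 0.59. With posterior mean TPM it was -0.47 for Gata6 over Gata4 and 2.99 for Gata4 to Gata6 over Gata1 to Gata3, and with a pseudocount of 1 it was 2.17 for Gata4 over Gata5 and 3.10 for that last ratio (2.32 and 3.26 in the main setting). Single libraries gave 1.15 to 1.37 for Cdx1 over Cdx2. Leading transcript shares became 81.4% (Gata1) and 61.8% (Gata3) with posterior means and 47.3% (Gata4) by counts. Scaling to spike-ins put the median log2 ratio of all genes at 0.27, against 0.02 in TPM, and Cdx1 at 0.14, Gata4 at 0.22 and Gata6 at 0.24, each reversed in sign and each below that median. Members over 1.5-fold apart numbered 0 in every setting run, beside 1.87% to 7.48% of all genes, depending on the setting. Members detected numbered 6 at a detection limit of 2, which left out Gata1 and Gata3, and 7 by FPKM, which left out Gata1, against 8 in the main setting. At a limit of 0.5, 8 lymphoid genes were detected (5 in the main setting), and at 2, 1 nephric duct and urothelium gene (3). Depth limits Gata1, at 83 and 71 counts, most.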

Other observations

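Genes whose proteins carry a GATA-type zinc finger outside the Gata family were read as a further group. Of 9 such genes 8 were detected, with a median of 21.2 TPM in replicate 1 and 23.6 in replicate 2. Mta2, a subunit of the NuRD chromatin complex, stood at 108 and 116, Gatad1 at 47.4 and 50.3, Mta3 at 33.3 and 35.8 and Gatad2a, another NuRD subunit, at 31.45 and 33.6. Zglp1, known from germ cells, was below 1 at 0.870 and 0.940. None of the detected genes was 1.5-fold apart between the libraries, beside 4.61% of all genes compared, a share at which this is no result about the list. The summed level of this list, 269 and 286 TPM, exceeded that of Gata1 to Gata6, 77.5 and 77.0.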
